A study of Mus musculus with 12 samples.

Results

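The genes of translation initiation factors (eIF) and elongation factors (eEF) were examined in single epithelial cells of murine small intestinal organoids. Members were all genes of the count tables whose symbol starts with Eif or Eef followed by a digit or letter, without the Eif4ebp inhibitors, the Eif2ak kinases, pseudogenes and antisense transcripts. This rule gave 64 of 32285 genes. Organoids from crypts of BALB/c mice spent 4 days in one of 6 conditions, in 3 experimental replicates. Control organoids grew alone. Treg organoids shared the well, without direct contact, with 100000 allogeneic CD4+CD25highFoxP3-GFP+ T cells, 30 U/ml IL-2 and 2 µl of CD3/CD28 beads. In 3 further co-cultures, antibodies at 10 µg/ml were added, either α-IFNγ, α-IL-10R or both. The last group received rIFNγ (0.25 ng/ml) and rIL-10 (10 ng/ml) without T cells and is called cytokine-stimulated below. Live EpCAM+ cells were tagged with an antibody that carries an oligonucleotide (hashtag) for each condition, pooled and sequenced, so that all 6 groups of a replicate share their libraries.

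A ribosome starts translation once initiation factors have brought together the messenger RNA, the initiator tRNA and the small subunit. The eIF2 complex delivers the initiator tRNA, eIF1 and eIF1A take part in choosing the start codon, the large eIF3 complex holds the parts in place, and eIF4 factors bind the cap of the messenger RNA and unwind it. eIF5B and eIF6 act at the joining of the large subunit. During elongation, eEF1A brings each charged tRNA, the eEF1B proteins recharge eEF1A with GTP, eEF2 moves the ribosome along, and eIF5A helps it across difficult sequences. In the intestine, dividing crypt cells need much protein synthesis for growth, while enterocytes are mature absorptive cells.

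The 5 libraries used held between 128917456 and 223155304 UMIs (unique molecular identifiers, each counting 1 captured RNA molecule near its 3′ end). The sixth library, which the study excluded for its low depth, was left out. Libraries shared between 9 and 24 cell barcodes, which count as separate cells. After hashtag calls and filters 11911 cells remained, between 1774 and 2120 per group, with a median of 43651 to 44690 UMIs per cell. Cells were sorted into classes by control clusters, which were named from markers. There were 1817 ISC-like (intestinal stem cell), 6757 TA-like (transit amplifying, the dividing crypt cells), 2174 enterocyte-like and 497 goblet/Paneth-like cells. Enterocyte progenitors were given no class of their own, because the naming of clusters had no step for them. The enterocyte-like control cluster carried 8 of 9 progenitor and 11 of 12 enterocyte markers. Which classes hold progenitors was not tested. One of the 3 TA-like control clusters carried 9 of 10 ISC markers beside 8 of 11 TA markers. Endocrine-like and tuft-like cells were too few for a test. A further 418 cells went to a control cluster that could not be named from the markers, and they entered no test of a class. T cell marker genes summed to at most 23.14 CPM (UMIs per 1000000 UMIs) in any class, group and replicate. Interferon-induced genes checked the hashtags of cytokine-stimulated and control cells, and the values given here do not cover those of the co-culture groups. With rIFNγ plus rIL-10, 7 of 7 tested genes were higher in ISC-like, TA-like and enterocyte-like cells. Among them Irf1, an interferon-induced transcription factor, measured 180, 114 and 167 CPM (here and in all comparisons further scaled within a class by TMM) in TA-like cells of the 3 cytokine-stimulated replicates against 6.58, 6.31 and 5.44 CPM in control.

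All cells together, the members took 1.76% of the UMIs. Levels in control organoids are given as CPM without further scaling, and UMIs count molecules at 1 end, so that gene length does not enter a comparison between genes. In control organoids, Eef1a1, which encodes the carrier of charged tRNA, led with 4403 ± 105 CPM (SD, n = 3), 25.0% of the members' UMIs. Next came Eef1b2, a subunit of its exchange factor, with 2175 ± 45.4, and Eif1, a factor for start codon choice, with 1200 ± 131 CPM. The ranges of these 3 genes over replicates were apart from each other. Eif5a followed with 893 ± 93.7, Eef1g with 607 ± 13.9, Eif4a1 with 595 ± 96.6, Eef2 with 589 ± 43.4 and Eif2s2 with 531 ± 104 CPM. Of these, Eef1g, Eif4a1, Eef2 and Eif2s2 did not differ beyond their spread. These 8 genes held 62.4% of the members' UMIs.

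Related genes were present at very unequal levels in control organoids. Eef1a2, the second gene for eEF1A, had no UMI in control cells and 1 in all cells, and Eif5a2 stood at 0.27 ± 0.0937 CPM beside 893 for Eif5a. Among the eIF4A helicases, Eif4a1 had 595, Eif4a3 108 ± 11.1 and Eif4a2 91.3 ± 12.2 CPM, and the last 2 overlapped. Among the cap-binding proteins, Eif4e2 had 147 ± 13.8, Eif4e between 121 and 127 and Eif4e3 1.05 ± 0.101 CPM, and Eif4e1b was counted 2 times in all cells. The scaffold genes were led by Eif4g2 with 274 ± 57.5, followed by Eif4g1 with 164 ± 35 and Eif4g3 with 56.6 ± 13.1 CPM. Eif1b reached 82.3 ± 0.825 beside 1200 for Eif1, while Eif1a and Eif1ax were level at 166 ± 14.6 and 166 ± 12 CPM. Eif3j1 and Eif3j2 measured 90.9 ± 13.8 and 53.2 ± 7.19 CPM, and since these copies are nearly identical their reads may be divided unevenly. Eif2s3x, for the γ subunit of eIF2, had 118 ± 19.6 CPM. Its Y-linked copy Eif2s3y had 0 of 541449491 UMIs, which allows up to 0.00554 CPM by counting error. The study's methods name male or female mice without saying which gave these organoids. A silent gene and a missing Y chromosome therefore cannot be told apart here. Eif2c5 matched the rule by its letters only, has an Argonaute name and was counted 5 times.

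**Figure D1:**
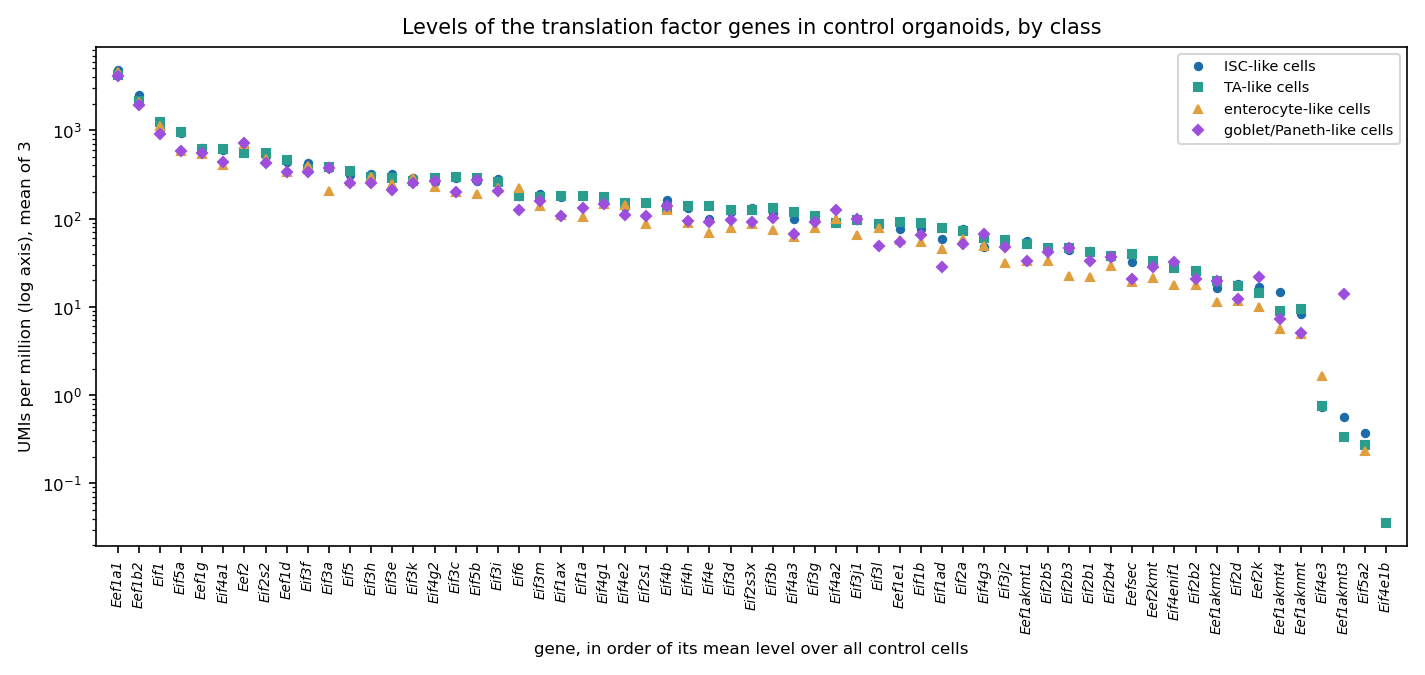
Level of each member in control organoids, as UMIs per 1000000 UMIs (CPM) on a log axis (mean of 3 replicates), with genes in order of their mean over all control cells and 1 symbol per class; a level of 0 is not drawn. Eef1a1 led with 4403 CPM over all control cells, and Eef1akmt3 stood out with 13.8 in goblet/Paneth-like cells.

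Classes were built from the same cells, so levels between them are given as a description without a test. In control organoids, Eif5a measured 940 ± 97.2 CPM in ISC-like cells and 944 ± 87.9 CPM in TA-like cells, but 583 ± 119 CPM in enterocyte-like cells and 580 ± 35.7 CPM in goblet/Paneth-like cells. Eif3a, the largest eIF3 subunit, had 384 ± 73.4 in TA-like and 203 ± 54.3 CPM in enterocyte-like cells. Eef2, the translocase, took the other order, with 558 ± 44.3 in TA-like, 700 ± 80.4 in enterocyte-like cells and 719 ± 104 CPM in goblet/Paneth-like cells. Eef1akmt3, a lysine methyltransferase of eEF1A, showed the widest contrast, with 13.8 ± 7.06 CPM in goblet/Paneth-like cells, 0.332 ± 0.191 in TA-like and 0 in enterocyte-like cells. Its 3 goblet/Paneth-like replicates rested on 4, 8 and 12 UMIs and lay at 7.11, 12.9 and 21.9 CPM after scaling.

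To ask whether IFNγ and IL-10 alone change these genes, cytokine-stimulated organoids were compared with control in each class. UMIs were summed per class, group and replicate and tested with edgeR's quasi-likelihood test blocked by replicate, and p-values were adjusted by Benjamini-Hochberg over all genes. Effects are log2 fold changes ± SE over 3 replicates per group, and "higher" and "lower" mean an adjusted p below 0.05. In TA-like cells 28 of 59 tested members were higher and 1 was lower. Of all 13745 genes tested there, 30.6% were called, 15.8% as higher and 14.8% as lower. In ISC-like cells 8 of 58 were higher and 1 lower (of all genes 10.9%, 5.32% higher and 5.56% lower). In enterocyte-like cells 3 were higher and 10 lower of 58 (of all genes 28.5%, 15.2% higher and 13.4% lower). In goblet/Paneth-like cells none of 56 passed (of all genes 2.14%, 1.15% higher and 0.988% lower), with 2 at an unadjusted p under 0.05 and 0 by DESeq2. Such an unadjusted p was found for 996 of all 8100 genes tested there. For the tested members the median log2 fold change was 0.12 (ISC-like and TA-like), -0.04 (enterocyte-like) and -0.02 (goblet/Paneth-like), while over all genes tested these medians lay between -0.01 and 0.01. These counts rest on the replicate block: without it, 4 members were called over all classes in place of 36. Without replicate 1 the number was 20, and without replicate 3 it was 12. Counts of all genes over all classes, or in these alternatives, are not given here, so these numbers have no background beside them.

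**Figure D2:**
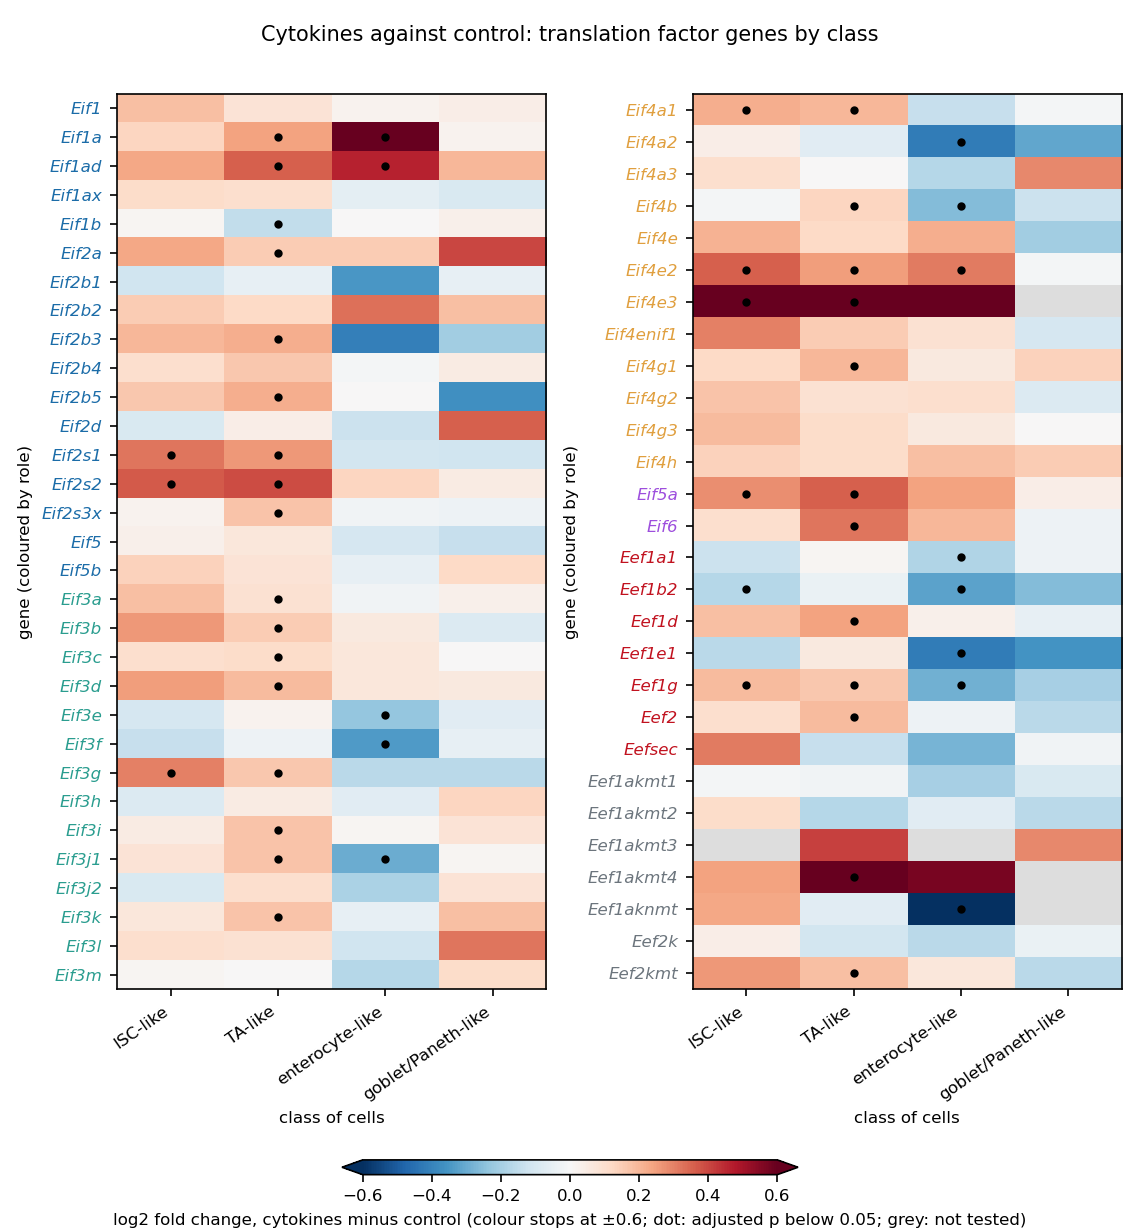
Log2 fold change of each tested member between cytokine-stimulated and control organoids (color, red for higher with cytokines) in 4 classes, with gene names colored by role; dots mark an adjusted p below 0.05, grey marks untested genes and the color stops at 0.6 in either direction. Dots mark 28 higher genes and 1 lower gene in the TA-like column (49.2% of members tested, against 30.6% of all genes), 3 higher and 10 lower in the enterocyte-like column (22.4%, against 28.5%) and 8 higher and 1 lower in the ISC-like column (15.5%, against 10.9%).

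In TA-like cells the higher genes came from every role. Of the 17 genes tested for initiator tRNA delivery and start codon choice, 8 were higher and 1 was lower. Higher were also 8 of 14 eIF3 genes, 5 of 12 eIF4 genes, both Eif5a and Eif6, 3 of 7 elongation genes and 2 of 7 enzymes that modify elongation factors. The elongation group holds Eef1e1 by its symbol, although its product belongs to the tRNA synthetase complex. Most changes were small, and the median was 0.15 for start codon, 0.11 for eIF3 and 0.12 for eIF4 genes on the log2 scale.

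The promoters of all members were searched for motifs in RefSeq sequence (GRCm38.p6) from 250 bases before to 50 after the start. Of the 64 members 50 had an entry. The E-box CACGTG, which Myc and related factors can bind and which reads the same on both strands, occurred in 14 of these 50 (28.0%) and in 8.09% of 27025 promoters of all genes. It occurred in 7 of the 21 TA-like higher genes with an entry (33.3%) and in 2 of the 8 enterocyte-like lower ones (25.0%). The promoters of all genes were not limited to genes expressed in these cells, so no motif share here has a matched background. The core of the interferon-stimulated response element (GAAA, any 2 bases and GAAA again, on either strand) occurred in 3 members (6%; 3.99% of all), Eif2s1, Eif2s3x and Eif3a, and the STAT motif TTCNNNGAA in 5 (10.0%; 9.55% of all). A run of at least 8 pyrimidines starting with C was sought within 5 bases of the annotated start, read along the gene's strand. It occurred in 7 members (14%, and 4.4% of all genes). These include Eif2c5, which matched the rule by its letters only, and Eif2s3y, which had no UMI. Such a run resembles the start of messenger RNAs whose translation depends on growth signals. Whether these transcripts start there was not tested. The gene coordinates of Eef1a1 span 78478449 to 78489151 on the minus strand, so its run below lies within the gene and not at its outer end. A match describes letters only. The windows below show 4 E-boxes of genes higher in TA-like cells and, as the last 2, the pyrimidine runs of genes lower in enterocyte-like cells, with the motif in capitals and each read along its gene's strand.
Eif5a (chr11:69921443-69921472, minus strand): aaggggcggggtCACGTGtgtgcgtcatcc
Eef2 (chr10:81176576-81176605, plus strand): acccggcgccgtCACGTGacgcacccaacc
Eif3k (chr7:28981915-28981944, minus strand): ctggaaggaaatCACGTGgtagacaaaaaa
Eef1akmt4 (chr16:20611497-20611526, plus strand): tgacggaagttcCACGTGtttgtgtggagc
Eif3f (chr7:108934404-108934433, plus strand): ttctaggCTCTCTCTCTTTCTCggcaagat
Eef1a1 (chr9:78481710-78481739, minus strand): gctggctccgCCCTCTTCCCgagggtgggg

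Eef1akmt4 (ENSMUSG00000115219, chromosome 16, 20611593 to 20619011, plus strand, GRCm38), a lysine methyltransferase of eEF1A, had the lowest p in TA-like cells. It measured 15.1, 13.8 and 17.1 CPM in the cytokine-stimulated replicates and 7.58, 9.29 and 9.97 CPM in control. All stimulated values were above all control values, with a log2 fold change of 0.76 ± 0.12 (edgeR, adjusted p = 0.000167). Its log2 fold change was 0.24 ± 0.20 in ISC-like and 0.57 ± 0.26 in enterocyte-like cells, neither past the threshold. A further annotated gene, Gm49333, covers it on the same strand, so reads of both cannot be fully told apart.

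Eif4e3 (ENSMUSG00000093661, chromosome 6, 99625135 to 99666771, minus strand), for a cap-binding protein related to eIF4E, had the largest fold change of the members, at a low level. In TA-like cells it rose from 0.776, 0.901 and 0.567 CPM to 5.93, 3.04 and 5.09 CPM, without overlap. The log2 fold change was 2.55 ± 0.43 (adjusted p = 0.000214), on 187 UMIs in stimulated and 44 in control cells. In ISC-like cells it had 2.78, 4.99 and 4.39 CPM against 1.07, 0.199 and 0.95 CPM, on 29 and 7 UMIs (2.56 ± 0.66, adjusted p = 0.0112). There it passed the filter on low counts only through the stimulated samples, so this value describes them and is no support for a difference. The enterocyte-like value of 1.09 ± 0.64 did not pass. On its strand too lies an overlapping gene, Gm20696. The other genes of this family changed less in TA-like cells, Eif4e2 by 0.25 ± 0.05 (adjusted p = 0.00196) and Eif4e by 0.12 ± 0.05, which missed the threshold.

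Among abundant members, Eif5a (ENSMUSG00000078812, chromosome 11, 69916714 to 69921958, minus strand) rose in TA-like cells. Its 3 stimulated replicates lay at 1091, 1136 and 1401 CPM and those of control at 784, 989 and 1070 CPM. The groups did not overlap, and the log2 fold change was 0.36 ± 0.06 (adjusted p = 0.000294). In ISC-like cells it was 0.28 ± 0.07 (adjusted p = 0.00495), and in enterocyte-like cells 0.24 ± 0.09, just outside the threshold at an adjusted p of 0.0509. Eif6, an anti-association factor of the large subunit, was higher in TA-like cells by 0.32 ± 0.07, from 142, 192 and 213 to 197, 209 and 274 CPM.

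The eIF2 subunits moved together in TA-like cells. Eif2s2 (β subunit; chromosome 2, 154871410 to 154892935, minus strand) measured 667, 779 and 674 CPM against 440, 671 and 535 CPM. Each replicate was higher than its own control although the groups overlapped, since replicate 2 was high in both. The log2 fold change was 0.39 ± 0.07 (adjusted p = 0.000602), and 0.37 ± 0.07 in ISC-like cells (adjusted p = 0.000862). Eif2s1 (α subunit) was higher by 0.26 ± 0.06 and Eif2s3x (γ subunit) by 0.17 ± 0.04 in TA-like cells. Of the eIF2B exchange factor, Eif2b3 and Eif2b5 were both higher by 0.22, with an SE of 0.06 and 0.07, and the other 3 subunits did not pass. Eif1ad, which resembles eIF1A, rose from 73.6, 78.4 and 83.1 to 101, 92.1 and 111 CPM, without overlap (0.36 ± 0.07, adjusted p = 0.00100). The single lower member in TA-like cells was Eif1b, with 68.6, 80.9 and 92.3 CPM against 81.8, 91.1 and 93.8 CPM. Its log2 fold change was -0.15 ± 0.05 (adjusted p = 0.0175), while that of the related Eif1 was 0.08 ± 0.05 and did not pass.

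The eIF3 genes higher in TA-like cells were Eif3a, Eif3b, Eif3c, Eif3d, Eif3g, Eif3i, Eif3j1 and Eif3k, with log2 fold changes between 0.09 and 0.19. Eif3k had the lowest p among them, with 257, 294 and 358 CPM against 221, 276 and 310 CPM (0.17 ± 0.04, adjusted p = 0.00167). Of the cap-complex genes, Eif4a1 was higher by 0.20 ± 0.05, Eif4g1 by 0.20 ± 0.04 and Eif4b by 0.13 ± 0.04. The other 2 scaffold genes, Eif4g2 and Eif4g3, gave 0.09 ± 0.04 and 0.11 ± 0.05 without passing. Eef2 (ENSMUSG00000034994, chromosome 10, 81176631 to 81182498, plus strand) had a small change that varied little: 632, 655 and 618 CPM stood against 551, 577 and 540 CPM. The groups did not overlap (0.19 ± 0.03, adjusted p = 0.000246). Of the eEF1 complex, Eef1d and Eef1g were higher by 0.24 ± 0.05 and 0.16 ± 0.04, whereas Eef1a1 gave 0.01 ± 0.02 and Eef1b2 gave -0.04 ± 0.03, neither past the threshold.

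All 8 genes higher in ISC-like cells were among the 28 of TA-like cells (28.6% of these): Eef1g, Eif2s1, Eif2s2, Eif3g, Eif4a1, Eif4e2, Eif4e3 and Eif5a. This count includes Eif4e3, which passed the filter through the stimulated samples, and it was 4 without replicate 1, 2 without replicate 3, 3 with equal cell numbers and 0 without the replicate block. How many of all genes were higher in both classes was not counted, so this overlap has no background beside it. Both classes were compared with controls of the same pooled libraries. The single lower gene there was Eef1b2, with 1939, 2197 and 2537 CPM against 2444, 2303 and 2766 CPM (-0.17 ± 0.05, adjusted p = 0.0265).

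The makeup of the crypt classes moved with the cytokines. The TA-like cluster that also carries ISC markers held 24.65% to 39.79% of TA-like cells in the stimulated replicates and 41.38% to 51.71% in control. Of 9 ISC markers tested, 7 were lower with cytokines in each of the ISC-like and TA-like classes. The 11 TA markers moved as well, with 4 higher and 0 lower in ISC-like cells (median log2 fold change 0.29) and 4 higher and 6 lower in TA-like cells (median -0.22). The part of these shifts in the members' values was not tested. The 3 TA-like clusters were also fitted by themselves, an alternative chosen after the data were seen. They had 26, 15 and 17 of 58 members higher and none lower. Of all genes, 19.6%, 20.7% and 17.4% were called there, counted in either direction. By edgeR 10 members were higher in every cluster: Eef1akmt4, Eef1d, Eef1g, Eef2, Eif2s2, Eif3k, Eif4a1, Eif4e2, Eif5a and Eif6. The share of all genes higher in every cluster was not counted, so this number has no background beside it. Eif4e3 missed the threshold in the cluster that also carries ISC markers (1.28 ± 0.57, edgeR, adjusted p = 0.123). In the others it gave 2.81 ± 0.50 and 2.64 ± 0.53, both called. Whether it passed the filter on low counts there only through the stimulated samples was not checked, so these calls are no support for a difference. Changes of makeup within a cluster were not tested.

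Enterocyte-like cells gave 10 lower members of 58 tested, while 13.4% of all genes were lower there. Among them were 4 of the 7 genes of the elongation group, with Eef1e1 counted. Eef1b2 (ENSMUSG00000025967, chromosome 1, 63176825 to 63180486, plus strand) measured 1470, 1941 and 1580 CPM in stimulated and 1981, 2116 and 2116 CPM in control replicates. The groups did not overlap (-0.32 ± 0.07, adjusted p = 0.00127). Eef1g had 383, 509 and 427 CPM against 463, 604 and 550 CPM, each replicate below its control (-0.29 ± 0.06, adjusted p = 0.00185). Eef1a1 had 3438, 4748 and 4044 CPM against 4108, 4952 and 4700 CPM (-0.18 ± 0.05, adjusted p = 0.0198). Eef1e1, which belongs to the tRNA synthetase complex, was lower too (-0.42 ± 0.10, adjusted p = 0.00476). Of eIF3, Eif3f (-0.34 ± 0.08), Eif3j1 (-0.30 ± 0.08) and Eif3e (-0.23 ± 0.08) were lower, and of eIF4, Eif4a2 (-0.42 ± 0.10) and Eif4b (-0.26 ± 0.08).

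The largest fall was that of Eef1aknmt (ENSMUSG00000026694, chromosome 1, 162532127 to 162548551, minus strand), which methylates eEF1A at its N terminus and a lysine. It stood at 1.21, 2.19 and 1.76 CPM against 5.00, 4.71 and 4.93 CPM. The groups were far apart (-1.54 ± 0.29, adjusted p = 0.000619), on 31 UMIs in stimulated and 55 in control cells. In TA-like cells, where it was higher in control, the value was -0.07 ± 0.11.

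The 3 genes higher in enterocyte-like cells were Eif1a, Eif4e2 and Eif1ad. Eif1a, a start codon factor, lay at 199, 135 and 161 CPM against 95.5, 113 and 102 CPM, without overlap (0.68 ± 0.12, adjusted p = 0.000374). Its close relative Eif1ax passed in no class. All 3 were also higher in TA-like cells, where Eif1a rose by 0.24 ± 0.07. The same overlap over all genes was not counted, so this one has no background beside it. Enterocyte-like cells were more numerous in stimulated than in control organoids in replicates 1 and 2 (219 against 105 and 183 against 121) and fewer in replicate 3 (64 against 71), and 6 of 12 enterocyte markers were higher in them and 1 lower. The part of maturity in the lower members was not tested.

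**Figure D3:**
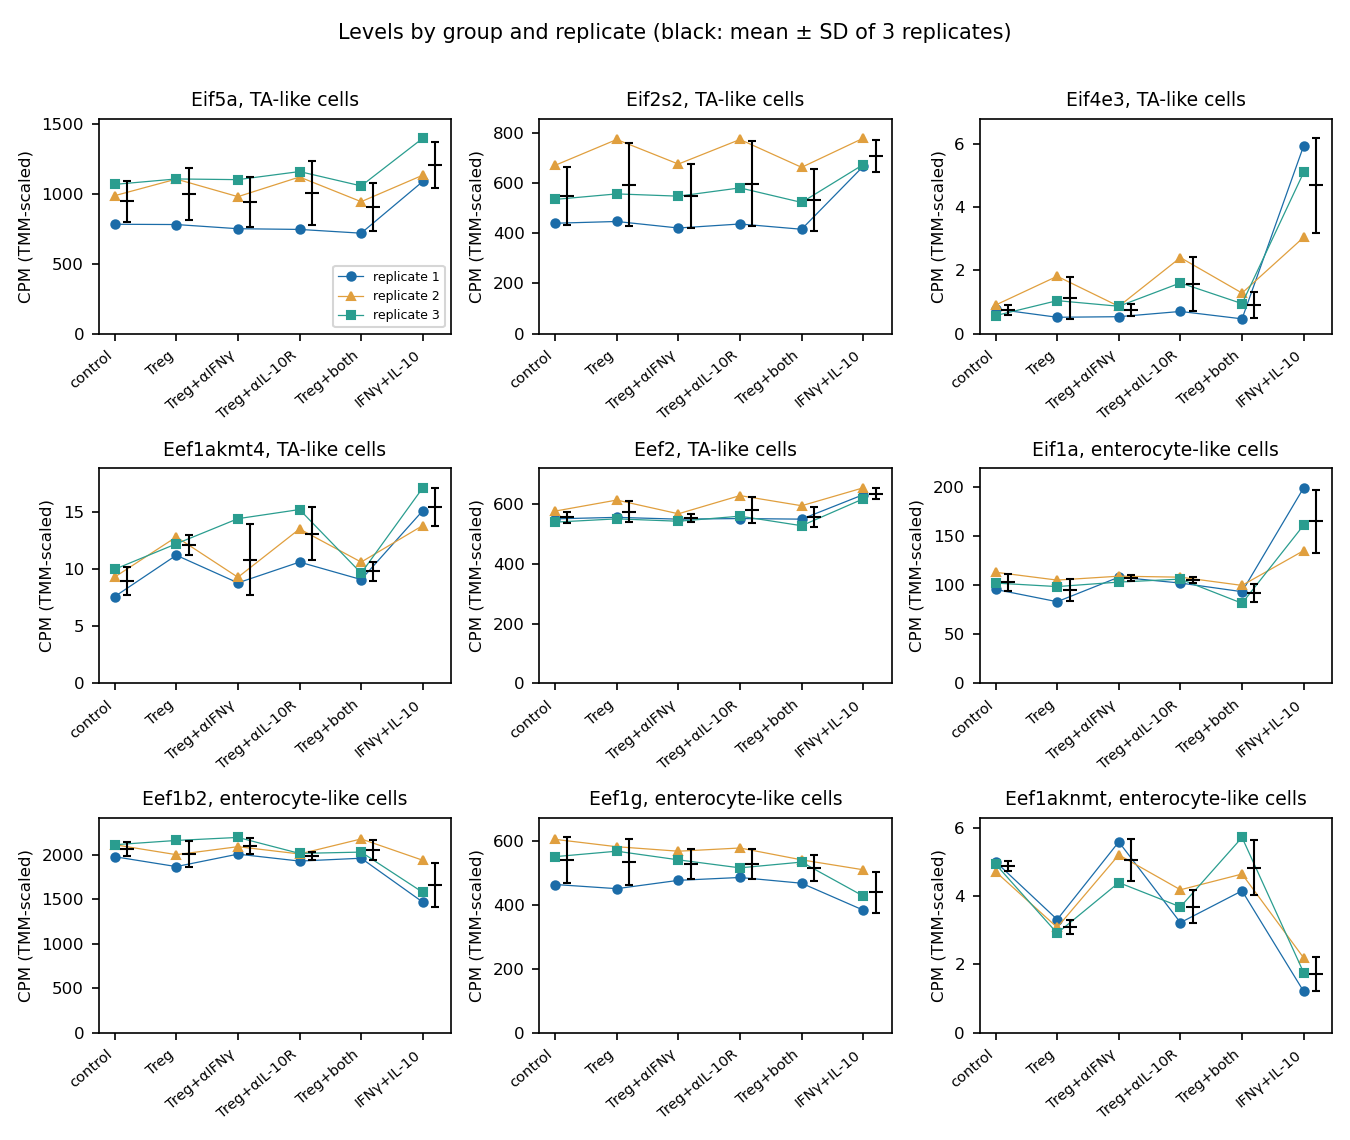
CPM (scaled within the class) of 9 members in the 6 groups, with a symbol and a line per replicate and the mean ± SD of 3 replicates in black. In TA-like cells Eif5a, Eif2s2, Eif4e3, Eef1akmt4 and Eef2 were highest in the cytokine group in every replicate; in enterocyte-like cells Eef1aknmt fell to between 1.21 and 2.19 CPM there.

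Whether the response differed between these classes was tested as an interaction, the cytokine effect in enterocyte-like minus that in TA-like cells. It passed the threshold as negative for 14 of 58 members and as positive for none. Of all 12879 genes, 9.01% were called, 5.47% in the negative and 3.54% in the positive direction. By sign alone, 9 of the 58 members lay above zero. Of the members 21 had an unadjusted p under 0.05, as had 2929 of all 12879 genes, and DESeq2 called 16 members. The median over the tested members was -0.17 and over all genes -0.02. Eef1g showed the lowest p: it was higher in TA-like and lower in enterocyte-like cells, and the difference was -0.46 ± 0.07 (adjusted p = 0.000217). Eif3j1 and Eif4b were called in opposite directions too, with differences of -0.48 ± 0.10 and -0.40 ± 0.09. For Eef1aknmt the difference was -1.49 ± 0.28 (adjusted p = 0.00108), for Eef1e1 -0.48 ± 0.11, for Eef1b2 -0.29 ± 0.07, for Eef2 -0.23 ± 0.06 and for Eif3f -0.31 ± 0.08. By role, the difference was called negative for 5 of 7 elongation genes (Eef1e1 counted), 4 of 14 eIF3 genes and 3 of 12 eIF4 genes. By sign alone, it was above zero for 0 elongation, 0 eIF3 and 4 eIF4 genes. Leaving out replicate 3 ended all 14 calls, leaving out replicate 1 left 5, and without the replicate block 1 remained. The loss of calls among all genes in these alternatives is not given here.

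**Figure D4:**
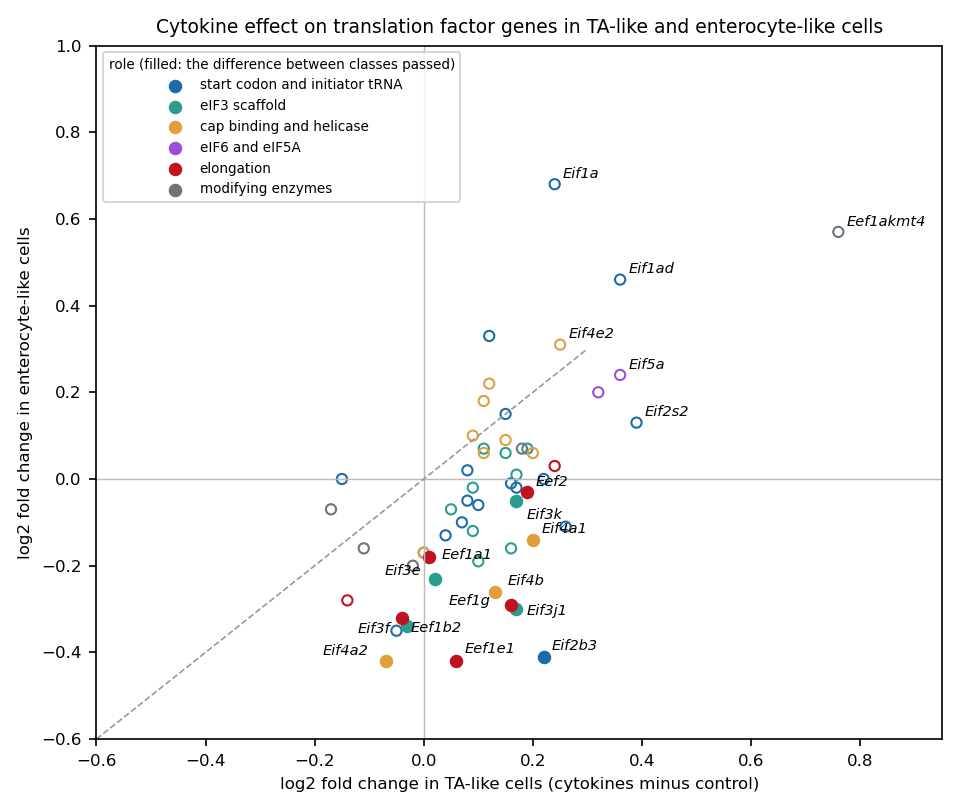
Log2 fold change (cytokine-stimulated minus control) of each member in TA-like cells on the horizontal and enterocyte-like cells on the vertical axis, colored by role, with filled points for members whose effects differ by the interaction test and a dashed line of equal effects; Eif4e3 and Eef1aknmt, of which the latter also differs, lie outside the axes. Elongation genes such as Eef1g (0.16 and -0.29) lie below the diagonal.

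Other genes of translation, from lists, give the setting. Of 21 tested tRNA synthetases and their scaffold proteins, which charge tRNAs with amino acids, 16 were higher and 1 lower in TA-like cells. The counts were 7 and 1 for ISC-like, 8 and 1 for enterocyte-like, and 1 and 0 for goblet/Paneth-like cells. Of all genes tested, 15.8% were higher and 14.8% lower in TA-like cells, and 5.32% and 5.56% in ISC-like cells. In enterocyte-like cells these shares were 15.2% and 13.4%, and in goblet/Paneth-like cells 1.15% and 0.988%. Wars, for tryptophan, was higher in each class, in goblet/Paneth-like cells from 162, 140 and 130 to 680, 249 and 469 CPM. Yars, for tyrosine, rose in TA-like cells by 0.83 ± 0.12, and Farsb, a subunit for phenylalanine, was lower there (-0.15 ± 0.04). Of 8 termination and recycling factors 6 were higher in TA-like cells, led by the release factors Etf1 (0.30 ± 0.05) and Gspt1 (0.26 ± 0.05).

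Regulators of the members were called in several directions. Of all genes, 15.8% were higher and 14.8% lower in TA-like cells, and 15.2% and 13.4% in enterocyte-like cells. Whether these short lists differ from such shares was not tested. Pdcd4, an inhibitor of the eIF4A helicase, was lower in ISC-like, TA-like and enterocyte-like cells. In TA-like cells it stood at 91.8, 169 and 130 CPM against 225, 229 and 198 CPM (-0.73 ± 0.14, adjusted p = 0.000786). Eif4ebp1, an inhibitor of eIF4E, was higher in these 3 classes, in TA-like cells by 0.68 ± 0.11 (adjusted p = 0.000247). Of the 9 listed cap regulators, Larp1 was also higher and Mknk2 lower in TA-like cells. Of 8 tested eIF2 kinases and stress response genes, 3 were higher in TA-like cells, namely the interferon-induced kinase Eif2ak2 (0.38 ± 0.07), Atf4 (0.34 ± 0.08) and Ppp1r15b (0.21 ± 0.07). Of 5 poly(A)-binding genes, 4 were lower in enterocyte-like cells, among them Pabpc1 (-0.36 ± 0.08) and Pabpc4 (-0.48 ± 0.11), while in TA-like cells Pabpc4 was higher by 0.24 ± 0.06 and Paip2 (-0.24 ± 0.05) and Paip1 (-0.14 ± 0.04) were lower. Of 8 hypusine and diphthamide enzymes, which modify eIF5A and eEF2, 2 were higher in TA-like cells, and of 10 mitochondrial translation factors 2 were higher and 1 lower.

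In the co-cultures nearly no member was called. Treg cells against control gave 0 members in each class by edgeR and by DESeq2, with 0, 1, 1 and 1 at an unadjusted p under 0.05 in ISC-like, TA-like, enterocyte-like and goblet/Paneth-like cells. Of all genes, 0.219%, 0.422%, 0.0823% and 0% were called in these classes. An unadjusted p under 0.05 was found for 794 of 10979, 1199 of 13745, 770 of 10929 and 634 of 8100 genes. Treg cells with both antibodies gave 0 by both tools, with 1, 0, 0 and 4 at an unadjusted p under 0.05, and 0% of all genes were called in each class. Among all genes, 529, 520, 385 and 398 had such an unadjusted p. Treg cells with α-IFNγ gave 0 by both tools, with 1, 0, 2 and 3 at an unadjusted p under 0.05 (0.00911%, 0%, 0% and 0% of all genes called). Here 349, 282, 387 and 467 of all genes had such an unadjusted p. The direct comparison of Treg cells without and with both antibodies gave 0 by both tools, with 3, 4, 3 and 2 at an unadjusted p under 0.05 (0.282%, 0.502%, 0.146% and 0.0247% of all genes called). It gave such an unadjusted p for 715, 1563, 767 and 432 of all genes. By sign alone, 41 of 58, 46 of 59, 34 of 58 and 39 of 56 members lay above zero in this direct comparison. Their median log2 fold changes were 0.03, 0.04, 0.02 and 0.09, and over all genes these medians lay between -0.01 and 0.0. For Treg cells against control, 32 of 58, 35 of 59, 19 of 58 and 38 of 56 members lay above zero. For Treg cells with both antibodies against control, 20 of 58, 18 of 59, 13 of 58 and 20 of 56 did. Sign counts over all genes are not given here. These signs were not tested. The comparisons share control or Treg samples. With α-IL-10R, 1 member was called, Eef1akmt4 in TA-like cells, where 1.39% of all genes were called. In the other 3 classes 0 members were called by edgeR and DESeq2, with 0, 0 and 2 at an unadjusted p under 0.05 in ISC-like, enterocyte-like and goblet/Paneth-like cells. Called there were 0.364%, 0.210% and 0.0988% of all genes, and 838, 880 and 532 of them had such an unadjusted p.

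Eef1akmt4 in TA-like cells lay at 10.6, 13.5 and 15.2 CPM with Treg cells and α-IL-10R, all above the 7.58, 9.29 and 9.97 CPM of control (0.53 ± 0.12, adjusted p = 0.0334). It had 11.2, 12.8 and 12.2 CPM with Treg cells alone, also without overlap, at an effect that missed the threshold (0.45 ± 0.12, adjusted p = 0.169). With both antibodies it had 9.07, 10.6 and 9.63 CPM and with α-IFNγ 8.78, 9.27 and 14.4 CPM, both overlapping control. The α-IL-10R call was lost without any 1 of the 3 replicates, without the block and with equal cell numbers. T cell markers summed to 1.14, 7.53 and 13.19 CPM (unscaled) in TA-like cells of that group's replicates, against 2.07 to 2.35 in control. Over all cells kept, Ctla4 had 986 UMIs and each other T cell marker 23 to 66. The part of T cells in this call was not tested.

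Eef1aknmt in enterocyte-like cells had 3.31, 3.08 and 2.91 CPM with Treg cells alone, below the control values of 5.00, 4.71 and 4.93 CPM, at an effect of -0.64 ± 0.27 that missed the threshold (adjusted p = 0.671). With both antibodies it had 4.15, 4.64 and 5.71 CPM. Eif4e3 in TA-like cells had 0.515, 1.81 and 1.04 CPM with Treg cells, overlapping control. For Eif5a in TA-like cells the interval of 2 SE around the Treg effect ran from -0.05 to 0.20 on the log2 scale. The cytokine effect, which shares the controls, was 0.36 ± 0.06, and the difference between both was not tested. For Eif2s2 the Treg interval ran from -0.05 to 0.24, and for Eef1b2 in enterocyte-like cells from -0.17 to 0.09.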

How the data were processed

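Per the labels and the study's methods, the authors ran Cell Ranger 7.0.0 against mm10 and deposited UMI counts per gene and hashtag for every barcode, without normalization. The members and gene lists were chosen with earlier results of these data known.

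Hashtags were called by HTODemux (Seurat 5.3.0, CLR, quantile 0.99) in each library, and cells with 1 hashtag were kept if they had 3000 to 10000 genes, 10000 to 90000 UMIs and a mitochondrial share of up to 8.5%. Hashtag doublets were removed, and a further doublet caller (Scrublet) served as an alternative. At its own threshold it marked 0% to 0.272% of the cells, so the number expected from hashtag doublets was used. Control cells were clustered (scanpy 1.11.5, Leiden, resolution 0.5, chosen after clusters were seen) without members, interferon, ribosomal protein and mitochondrial genes, and all cells were assigned to control clusters by correlation. Control cells of left-out replicates received the same class in 89.1% to 91.1% of cells. The clusters themselves had been built with these replicates, and cells of the other groups were not part of this check.

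UMIs were summed per class, group and replicate (at least 10 cells) and tested with edgeR 4.0.16 in R 4.3.3 (quasi-likelihood test, TMM, filterByExpr, all 6 groups in one fit, replicate as a block, Benjamini-Hochberg at 0.05). SE is the log2 fold change divided by the square root of F. The study used a mixed model per cell that was not used here. Sums held 312038 to 30122520 UMIs. All 6 groups of a replicate were pooled into the same libraries, which pairs them. After removal of group means, same-replicate sums correlated with a mean of 0.376 (ISC-like), 0.442 (TA-like), 0.402 (enterocyte-like) and 0.158 (goblet/Paneth-like). Other sums had a mean between -0.22 and -0.079, which follows from the removal of group means and is no separate result. The labels do not say whether replicates came from separate mice, so p-values measure the spread between these experiments. Alternatives were DESeq2 1.42.0, other scaling, no filter, no block, leaving out replicates, equal cell numbers and a higher UMI minimum. On simulated counts, the test recovered, of genes changed by 0.5 (log2), 31% in ISC-like, 59.6% in TA-like and 26.5% in enterocyte-like cells, but for goblet/Paneth-like cells 1.1%. The simulation changed 200 genes per class, while 1194, 4200, 3116 and 173 genes were called in these classes of the data. The adjusted p depends on that number, so these rates need not hold for the real comparison.

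Named genes were the 8 most abundant members, up to 8 members of lowest p per class or comparison, related gene copies and members never tested. Of the members, 55 were tested in 4 classes, 4 in fewer (Eef1aknmt, Eif4e3, Eef1akmt4, Eef1akmt3) and 5 in none (Eef1a2, Eif5a2, Eif4e1b, Eif2c5, Eif2s3y). Gene names outside this rule were chosen after their values were seen. Gene coordinates are those of GRCm38.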

Additional observations from a re-analysis of the deposited data

Results flagged for a closer look

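The cytokine effect differed between enterocyte-like and TA-like cells for 14 members by the test of the difference itself (edgeR, interaction term, adjusted p below 0.05). Each value is the log2 fold change in enterocyte-like minus that in TA-like cells. In the elongation group, which holds Eef1e1 by its symbol only, it was -0.46 for Eef1g, -0.48 for Eef1e1, -0.29 for Eef1b2, -0.23 for Eef2 and -0.19 for Eef1a1. Among eIF3 genes it was -0.48 for Eif3j1, -0.31 for Eif3f, -0.25 for Eif3e and -0.23 for Eif3k. Among eIF4 genes it was -0.40 for Eif4b, -0.36 for Eif4a2 and -0.34 for Eif4a1. It was -0.62 for the exchange factor gene Eif2b3 and -1.49 for the methyltransferase gene Eef1aknmt. No call was left without replicate 3. Eif2s1 (-0.37) and Eif1a (0.44) lay just outside the threshold, at adjusted p values of 0.0507 and 0.0617 by edgeR.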

How the results depend on the processing

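Over all classes, 36 members were called between cytokine-stimulated and control organoids. The number was 37 with DESeq2 size factors, 36 with total UMIs, 36 by DESeq2, 31 without the filter, 39 without Scrublet doublets, 35 with equal cell numbers and 36 at the higher UMI minimum. Leaving out a replicate gave 12 to 41, with 20 without replicate 1 and 12 without replicate 3. For the interaction of 14 calls, it gave 0 to 14, with 5 without replicate 1 and 0 without replicate 3, and 9 remained in number without the filter. Without the replicate block, the cytokine comparison gave 4 calls, the interaction 1 and α-IL-10R 0. Members higher in TA-like cells numbered 2 without the block, 23 with total UMIs, 23 without the filter and 7 to 31 with a replicate left out, and members lower in enterocyte-like cells 1, 10, 7 and 2 to 9. Members higher in ISC-like cells numbered 0, 11, 9 and 2 to 7. The α-IL-10R call went to 0 without any replicate (range 0 to 0) and with equal cell numbers. Without the filter, Treg cells against control gave 1 (Eef1akmt4, TA-like) and Treg cells against both antibodies 2. The 4 co-culture comparisons without a call had none (range 0 to 0) with a replicate left out. The causes were not tested. Counts of all genes in these alternatives are not given here. Whether members lose calls more often than other genes is therefore not shown, which holds for the next paragraph too.

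Of 66 values of single genes past the threshold, 65 kept direction and call by DESeq2, 62 with DESeq2 size factors, 58 with total UMIs, 52 without the filter, 56 without replicate 2, 28 without replicate 1, 13 without replicate 3 and 5 without the block. No value past the threshold changed direction in these alternatives. Eif4e3 and Eef1akmt4 in TA-like cells and Eif1a in enterocyte-like cells kept their calls in all 11. The fits by TA-like cluster are not among these, and there Eif4e3 missed the threshold in the cluster with ISC markers. Goblet/Paneth-like sums held 10 to 66 cells each, and the part of depth in their count of 0 was not tested.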

Other observations

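Ribosomal protein genes, a list chosen after the data were seen, were counted beside the members. Of 80 tested genes, 65 were lower and 0 higher in enterocyte-like cells of cytokine-stimulated organoids by edgeR, with a median log2 fold change of -0.21. In TA-like cells 22 were higher and 2 lower, with a median of 0.05. Of all genes, 15.2% were higher and 13.4% lower in enterocyte-like cells, and 15.8% and 14.8% in TA-like cells. In ISC-like cells 2 were higher and 4 lower, and in goblet/Paneth-like cells none passed, with 70 of 80 values below zero. The cytokine effect was called more negative in enterocyte-like than in TA-like cells for 72 of the 80 genes, and for 5.47% of all genes. By sign alone, 79 differences lay below zero. These genes took 26.15% to 28.48% of the UMIs of control enterocyte-like cells and 21.95% to 26.85% of those of stimulated ones.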
